A study of Homo sapiens with 12 samples.

Results

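The genes described here are the histone genes of the large human histone clusters, chosen by name. A member has a symbol that begins with an old cluster prefix (HIST, a digit and H) or with H2AC, H2BC, H3C, H4C or H1- and a digit, and no pseudogene ending. The members described number 69 of the 60624 genes that both experiments' tables hold, and 16 further entries with pseudogene names were left out. They make up 9 linker histone H1 genes, 16 H2A, 17 H2B, 13 H3 and 14 H4 genes. On GRCh38.p14 (RefSeq), 55 of them lie in the main cluster on the short arm of chromosome 6 (6p22) and 11 in the cluster on the long arm of chromosome 1 (1q21). The remaining 3 are the H1 genes H1-10, H1-7 and H1-8, which the naming rule takes in although they stand outside both clusters.

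The 12 bulk RNA-seq libraries came from islet-like cells grown from expandable pancreatic progenitors of MEL1, a human embryonic stem cell line. They form 4 groups of 3 libraries: NKX2-2 knockout and its own wild type, and CLEC16A knockout and its own wild type. NKX2-2 is a homeodomain transcription factor of islet cells, and CLEC16A takes part in the clearance of mitochondria. All groups were collected at day 8 in a medium named R6, which held B27, BSA, zinc sulfate, heparin, 616452, T3, LDN-193189, Compound E, vitamin C and forskolin. The progenitors of every group had been kept on feeder cells with B27, EGF, bFGF, 616452 and I-BET151, a BET bromodomain inhibitor. No label names an edited clone or says that replicates were separate cultures. A difference between cell lines and an effect of the knockout therefore cannot be told apart, and the p-values reflect library-to-library spread alone, which may be technical.

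Histone H2A, H2B, H3 and H4 proteins form the core around which DNA is wound, and H1 proteins bind the DNA that enters and leaves it. Most genes of the clusters are switched on in S phase, when new DNA has to be packaged, through the activator NPAT. Their messages end in a stem-loop that is bound by SLBP and cut with the help of U7 RNA, in place of a poly(A) tail. A minority, such as H2BC12, H2BC21 and H2AC6, also give polyadenylated transcripts that run past the stem-loop and are known from cells that have stopped dividing. H1-10 is expressed independently of replication with a polyadenylated message. How RNA was selected for the libraries beyond total RNA extraction is not given in the sources used here.

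The stem-loop was searched for in the annotated transcripts because it separates the short replication-dependent message from longer ones. A stem of 6 base pairs (G with T allowed) around a loop of 4 bases that begins with T, with GG at its start and CC at its end, was searched for within 150 bases of the stop codon. It was found in 28 of the 67 members that GENCODE 29 (GRCh38) holds. It began 22 to 67 bases after the stop codon, and 16 of the 28 genes had over 500 bases of annotated transcript beyond it. There were 6 distinct sequences, of which 1 was shared by 15 genes. The examples are from genes named in the results, with the stem-loop in capitals and 5 flanking bases on each side.
H2AC11: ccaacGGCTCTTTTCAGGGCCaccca
H2BC21: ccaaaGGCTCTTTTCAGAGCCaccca
H2AC6: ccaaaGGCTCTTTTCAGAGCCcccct
H2BC4: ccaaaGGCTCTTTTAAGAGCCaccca
H3C6: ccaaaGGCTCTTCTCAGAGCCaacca
H4C8: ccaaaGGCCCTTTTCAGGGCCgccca
H4C9: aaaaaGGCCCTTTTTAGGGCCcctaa
Each is written 5′ to 3′ as DNA. The first stem arm was the same in all 7 H4 genes with a stem-loop, as in H4C8 and H4C9, and the stem-loop genes of the other classes shared another, as in H2BC21. The most common form, found in 15 genes, is that of H2BC21 and H2AC6, and the forms of H2AC11 and H3C6 were found in 1 gene each.

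Promoters are shown for H2AC11, H2BC8, H2BC12 and H2BC21, which fell in the NKX2-2 experiment, and for H4C8, which rose. The RefSeq table (GRCh38.p14, 250 bases before to 50 after the start) held 64 of the 69 members. Capitals mark 3 short motifs, each searched on either strand, so that a reverse complement is in capitals too. They are the core of the TATA box (TATAAA, which can overlap its own reverse complement), the CCAAT box bound by NF-Y, and the octamer ATTTGCAT bound by POU2F1.
H2AC11, chr6:27132793-27133092, plus strand: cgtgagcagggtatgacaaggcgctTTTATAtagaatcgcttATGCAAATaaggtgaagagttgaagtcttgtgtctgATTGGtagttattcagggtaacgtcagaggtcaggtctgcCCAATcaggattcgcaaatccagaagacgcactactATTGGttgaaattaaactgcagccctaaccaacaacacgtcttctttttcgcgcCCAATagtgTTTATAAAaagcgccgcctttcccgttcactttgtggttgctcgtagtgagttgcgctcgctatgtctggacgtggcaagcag
H2BC8, chr6:26216639-26216938, minus strand: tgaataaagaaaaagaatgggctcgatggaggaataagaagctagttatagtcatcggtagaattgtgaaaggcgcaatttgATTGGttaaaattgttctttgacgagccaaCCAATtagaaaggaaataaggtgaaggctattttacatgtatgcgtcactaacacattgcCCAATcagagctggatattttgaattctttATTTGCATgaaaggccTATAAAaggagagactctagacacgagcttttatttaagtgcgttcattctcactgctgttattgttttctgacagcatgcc
H2BC12, chr6:27146809-27147108, minus strand: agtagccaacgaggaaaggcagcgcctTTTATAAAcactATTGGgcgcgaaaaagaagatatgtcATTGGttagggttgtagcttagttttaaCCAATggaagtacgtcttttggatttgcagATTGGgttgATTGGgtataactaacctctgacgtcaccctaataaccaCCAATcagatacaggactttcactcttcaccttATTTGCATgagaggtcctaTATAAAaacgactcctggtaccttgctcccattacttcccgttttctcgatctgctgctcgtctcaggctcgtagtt
H2BC21, chr1:149886633-149886932, minus strand: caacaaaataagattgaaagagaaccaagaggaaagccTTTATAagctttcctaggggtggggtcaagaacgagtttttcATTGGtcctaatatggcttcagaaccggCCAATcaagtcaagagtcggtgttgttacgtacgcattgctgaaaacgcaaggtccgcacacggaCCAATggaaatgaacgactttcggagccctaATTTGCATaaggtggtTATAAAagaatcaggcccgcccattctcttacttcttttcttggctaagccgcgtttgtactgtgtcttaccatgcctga
H4C8, chr6:26285485-26285784, minus strand: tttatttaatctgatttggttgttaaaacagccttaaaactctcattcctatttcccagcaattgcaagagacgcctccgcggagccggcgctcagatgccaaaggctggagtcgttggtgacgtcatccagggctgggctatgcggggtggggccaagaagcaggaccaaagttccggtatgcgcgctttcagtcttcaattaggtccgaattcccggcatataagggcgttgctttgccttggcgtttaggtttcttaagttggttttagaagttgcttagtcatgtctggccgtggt
TATAAA was present in 42 of the 64 member promoters and in 12.0% of all 27305 promoters of the table. CCAAT was present in 54 of 64, against 35.7% of all. The octamer was present in 26 of 64, against 1.8% of all, and 25 of these 26 belonged to H2A and H2B genes. The H2AC11 sequence also spans the start of H2BC11 on the opposite strand, so both genes share 1 copy of the octamer. H4C8 holds none of the 3 motifs in its window.

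Library totals lay between 16157481 and 20649976 counts for NKX2-2 and its control, and between 31364272 and 33763795 for CLEC16A and its control. The targeted genes were still transcribed in the knockout libraries. NKX2-2 stood at 65.8 to 94.5 CPM (counts scaled to library size) in its knockout and 91.9 to 97.9 in its wild type libraries, which overlap, and at 28.6 to 44.6 and 54.5 to 60.8 TPM, which do not. CLEC16A overlapped in both units, at 33.7 to 36.3 and 31.6 to 38.3 CPM and at 10.2 to 10.9 and 9.34 to 12.7 TPM. The edit itself is not described in the labels, so these levels do not settle whether the labels hold. The tables were normalized separately by the authors, and levels are compared only within an experiment.

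Few genes carried most of the reads of the 69 members. H1-10, H2BC12, H2AC6, H2BC5 and H4C9 together took 80.8% of their counts in the NKX2-2 experiment and 76.7% in the CLEC16A experiment. Per length, in TPM (transcript abundance on a fixed total), H2BC12 had a mean of 174.9 in the NKX2-2 libraries and H1-10 one of 160.0. In the CLEC16A libraries H1-10 had 371.0 TPM and H2BC12 had 309.5. H2BC5 and H2AC6 were lower in both, at 38.3 and 30.7 TPM in the first experiment and 106.7 and 58.8 in the second.

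Most members with short annotated transcripts had few counts, with H2BC12 and H2BC5 as the largest of several exceptions. H2BC12 counts as short by its GENCODE 29 transcript of 381 bases, while its RefSeq span is 8566 bases. The 45 members whose longest GENCODE 29 transcript is under 1000 bases had a median of 6 counts over the 6 NKX2-2 libraries and 15 over the 6 CLEC16A libraries. The 22 members with a transcript of at least 1000 bases had medians of 230 and 440 counts and took 66.1% and 66.5% of member counts. The short set held the other 33.9% and 33.5% of counts, and 54.2% and 52.5% of TPM, with H2BC12 alone at 12712 counts and H2BC5 at 4385 in the NKX2-2 libraries. H1-10, which stands outside the clusters, belongs to the long set and alone had 22456 and 30975 counts in the NKX2-2 and CLEC16A libraries. Without it, the short set held more counts than the long set in both experiments. No count fell on 11 members in any of the 12 libraries, which allows up to 0.186 CPM in the smallest NKX2-2 library and 0.0957 CPM in the smallest CLEC16A library, for counting error only. These limits need not hold for near-identical copies. H3C14 and H3C15 had no counts, yet mean TPM of 0.264 and 0.250 in the NKX2-2 and 0.592 and 0.585 in the CLEC16A libraries. The part of RNA selection in these levels was not tested.

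Members held a lower share of the reads in each NKX2-2 knockout library than in any wild type library, with or without H1-10. The share of the 69 members was 0.0509% ± 0.0021 against 0.0694% ± 0.0064 of the counts that do not fall on mitochondrial DNA genes (SD, n = 3 each). The groups did not overlap, and the exact two-sided permutation p was 0.1, the smallest that 3 against 3 libraries can give (0.133 after Benjamini-Hochberg adjustment over 4 comparisons). Without H1-10 the share was 0.0303% ± 0.0022 against 0.0463% ± 0.0048 (exact permutation p = 0.1). In the CLEC16A experiment the direction depended on that 1 gene. The share was 0.0416% ± 0.00054 in the knockout and 0.0466% ± 0.00064 in the wild type with H1-10 (ratio 0.893, exact permutation p = 0.1, adjusted 0.133). It was 0.0295% ± 0.0015 and 0.0268% ± 0.0021 without it (ratio 1.10, exact permutation p = 0.2). Summed TPM of the 69 members gave 427 ± 17 against 608 ± 52 in the first experiment (exact permutation p = 0.1, adjusted 0.133), and 1103 ± 20 against 1165 ± 73 in the second (exact permutation p = 0.3, adjusted 0.3). In bulk RNA, fewer cells of a type and less RNA per cell cannot be told apart.

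In the NKX2-2 experiment most tested histone genes were lower in the knockout, led by the neighbours H2BC11 and H2AC11 each more than 4-fold lower. Low counts kept 46 members out of the test. Of the 23 tested, 9 fell, 1 rose and 13 did not pass (edgeR quasi-likelihood, adjusted p under 0.05). Over all genes tested, 33.4% passed, made up of 16.8% lower and 16.6% higher. The median log2 fold change was -0.45 over the tested members and 0.033 over all 17436 genes tested, and 19 of the 23 members had a negative value.

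H2BC11 encodes an H2B protein and lies on chromosome 6 at chr6:27132316-27132795 (RefSeq). It stood at 2.95, 2.55 and 2.89 CPM in the knockout libraries and at 12.5, 12.5 and 14.2 CPM in the wild type libraries. Every knockout library was far below every wild type library. The fall was 4.68-fold (log2 fold change -2.22, SE 0.16, adjusted p = 4.588e-07). H2AC11, an H2A gene at chr6:27133043-27133535 that is read in the opposite direction from the same promoter stretch, stood at 3.49, 2.55 and 3.00 CPM in the knockout and at 14.8, 11.9 and 15.2 CPM in the wild type. Again no library of one group reached the other, and the fall was 4.65-fold (log2 fold change -2.22, SE 0.18, adjusted p = 9.781e-07).

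H4C8, an H4 gene at chr6:26285126-26285534, went the other way. It stood at 19.9, 17.7 and 20.9 CPM in the knockout and at 9.95, 10.2 and 10.4 CPM in the wild type. Its groups were well apart, with a rise of 1.91-fold (log2 fold change 0.94, SE 0.13, adjusted p = 8.034e-05). It was the 1 member called higher.

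**Figure D1:**
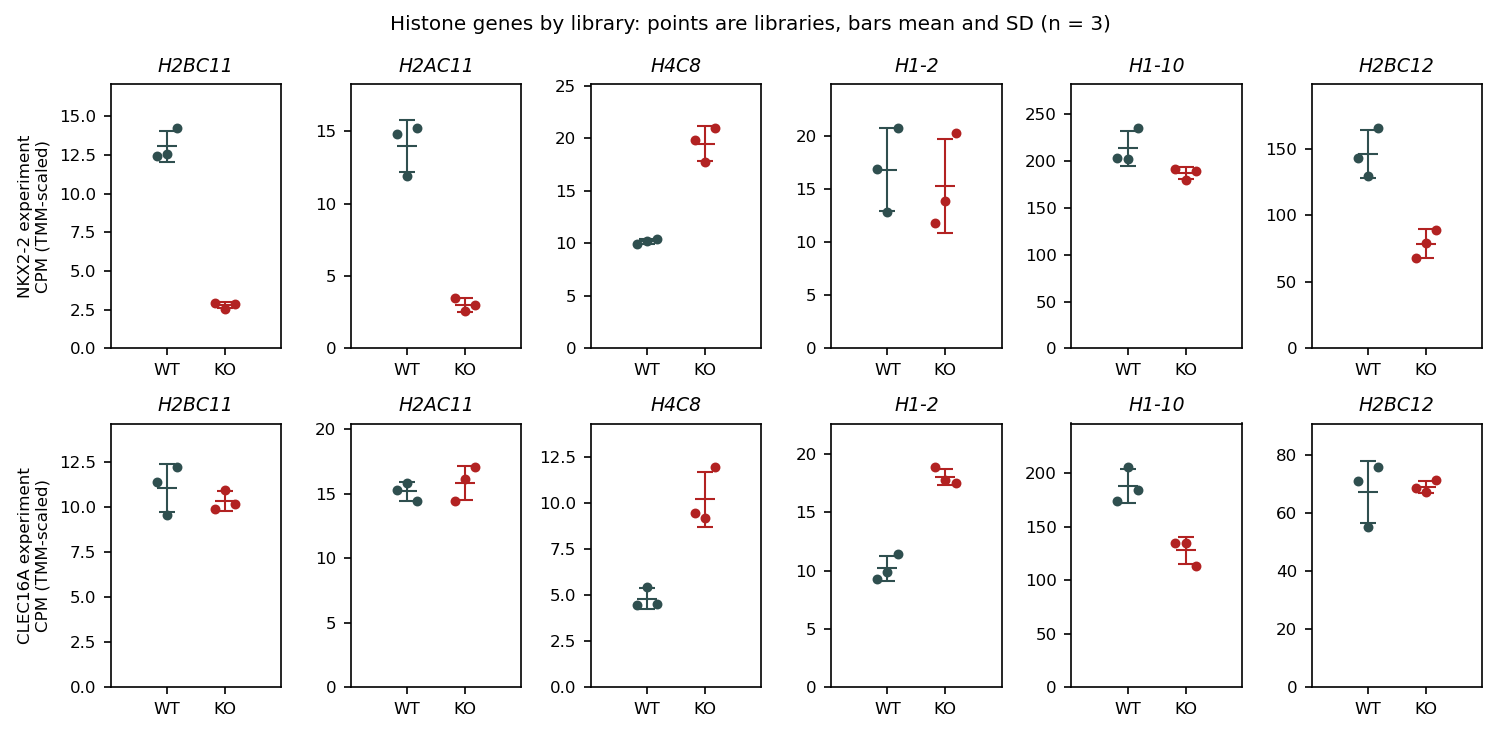
CPM of 6 histone genes in each library, NKX2-2 experiment in the upper and CLEC16A experiment in the lower panels, with wild type (WT) and knockout (KO) libraries as points and mean and SD (n = 3) as bars. H2BC11 and H2AC11 are far lower in the NKX2-2 knockout and overlap between groups in the CLEC16A experiment, while H4C8 is higher in both knockouts.

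Among H2B genes, 4 of 10 tested fell: H2BC11, H2BC8 (log2 fold change -1.40), H2BC21 (-1.0) and H2BC12 (-0.89). H2BC12, the most abundant H2B gene, stood at 67.7 to 89.3 CPM in the knockout and at 129.5 to 165.3 CPM in the wild type libraries, and did not overlap. H2BC21, in the 1q21 cluster, stood at 8.90 to 10.9 CPM and 17.7 to 20.9 CPM. H2BC5 and H2BC15 had values of -0.35 and -0.61 that missed the threshold (adjusted p = 0.0524 and 0.0553).

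Among H2A genes, 3 of 5 tested fell, H2AC11, H2AC6 (log2 fold change -0.55) and H2AC13 (-0.83). H2AC13 rests on 1.02 to 2.08 CPM in the knockout and at most 3.19 CPM in the wild type. It lost its call without knockout replicate 1 or 2 or wild type replicate 1 or 2 (adjusted p 0.0943 to 0.154), with DESeq2 (0.0808) and under upper-quartile scaling (0.0613). Among H3 genes, H3C6 fell (log2 fold change -0.42, adjusted p = 0.0416) and H3C8 and H3C10 did not pass. The H3C6 call was lost without any 1 of 5 libraries, that is all but knockout replicate 1 (adjusted p 0.0667 to 0.175), with DESeq2 (0.0555), under upper-quartile scaling (0.0783) and on TPM values with limma (0.119).

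Among H4 genes, H4C8 rose, H4C9 fell (log2 fold change -0.81, adjusted p = 0.00048) and H4C5 did not pass. H4C9 lies within the RefSeq span of H2BC12 (chr6:27138293-27146858) on the opposite strand. GENCODE 29 gives H2BC12 a shorter span that does not reach it. The annotation release and strand setting behind the counts are not given, so reads of H4C9 and of long H2BC12 transcripts cannot be told apart, and the value of H4C9 is uncertain.

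The linker histone genes H1-10 and H1-2 did not pass. H1-10, at chr3:129314771-129316286, stood at 191.5, 179.7 and 189.6 CPM in the knockout and at 202.9, 202.8 and 234.9 CPM in the wild type. Its groups did not overlap, but the log2 fold change of -0.19 did not pass (SE 0.10, adjusted p = 0.162). H1-2, the 1 clustered H1 gene with enough counts, had a value of -0.13 with overlapping groups (adjusted p = 0.656). Of all 23 tested members, 17 had groups that did not overlap, against 45.5% of all genes tested.

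In the CLEC16A experiment the called histone genes were higher in the knockout, with H1-10 as the exception. Of 25 tested members, 10 rose, 1 fell and 14 did not pass, and low counts kept 44 out. Over all 19958 genes tested, 45.0% passed, 23.7% higher and 21.3% lower. The share of members called, 44.0%, was near that background, while 40.0% were higher and 4.0% lower. The median log2 fold change was 0.23 over the tested members and -0.01 over all genes.

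H1-10, which encodes the linker histone H1.10, stood at 134.8, 135 and 113.5 CPM in the knockout and at 173.9, 205.2 and 184 CPM in the wild type. All knockout libraries were below all wild type libraries, a fall of 1.47-fold (log2 fold change -0.55, SE 0.08, adjusted p = 2.781e-06). An antisense gene, H1-10-AS1, overlaps it on the opposite strand, and without a known strand setting their reads cannot be told apart.

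H1-2, the clustered linker histone gene at chr6:26055740-26056470, stood at 18.8, 17.8 and 17.5 CPM in the knockout and at 9.32, 9.87 and 11.4 CPM in the wild type. The groups were well apart and the rise was 1.77-fold (log2 fold change 0.82, SE 0.12, adjusted p = 4.949e-06). H4C8 stood at 9.47, 9.19 and 11.9 CPM in the knockout and at 4.47, 5.46 and 4.49 CPM in the wild type. It too did not overlap and rose 2.12-fold (log2 fold change 1.08, SE 0.16, adjusted p = 6.19e-06).

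All 3 tested H3 genes rose. H3C6 had a log2 fold change of 0.96 (adjusted p = 1.387e-05), H3C10 of 0.39 and H3C8 of 2.26. H3C8 rests on few reads, 0.549 to 0.932 CPM in the knockout and 0.0860 to 0.182 CPM in the wild type. H3C10 lost its call without knockout replicate 1 or any wild type replicate (adjusted p 0.0539 to 0.176) with DESeq2 (0.0772), under upper-quartile scaling (0.0982), with no filter on low counts (0.079) and on TPM values with limma (0.151). On TPM values with no filter, H3C8 did not pass (0.0743).

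H2B genes were less uniform, with 3 of 11 tested called, all higher. These were H2BC4 with a log2 fold change of 1.62, H2BC9 with 1.00 and H2BC5 with 0.62, the last not passing on TPM values with no filter (limma, adjusted p = 0.0805). In GENCODE 29 the span of H2BC5 overlaps LARP1P1 on its own strand and AL353759.1 on the opposite strand. Without a known annotation and strand setting, the values of H2BC5 in both experiments may hold reads of these genes. H2BC4 stood at 3.33 to 4.82 CPM in the knockout and at 1.09 to 1.55 CPM in the wild type. The members with the largest falls in the NKX2-2 experiment were not called here: H2BC11 had a value of -0.10 (adjusted p = 0.594) and H2AC11 of 0.06 (adjusted p = 0.688), both with overlapping groups. H2BC12 had a value of 0.04 (adjusted p = 0.778).

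Of 5 tested H2A genes, H2AC6 (log2 fold change 0.24) and H2AC13 (0.93) rose. H2AC6 lost its call without knockout replicate 1 or 3 or wild type replicate 3 (adjusted p 0.0549 to 0.107), under upper-quartile scaling (0.0925), in 1 fit of all 12 libraries (0.0849) and on TPM values with limma (0.388). H2AC13 lost it without knockout replicate 3 or wild type replicate 3 (0.112 and 0.0661). Among 4 tested H4 genes, only H4C8 was called. Groups did not overlap for 12 of 25 tested members, against 53.8% of all genes tested.

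A few histone genes were called in opposite directions in the experiments. Each knockout has its own wild type libraries, so the comparisons share no control. Among 23 members tested in both, 4 were called in both. H2AC6, H3C6 and H2AC13 fell in the NKX2-2 knockout and rose in the CLEC16A knockout, and H4C8 rose in both. Over the 16975 genes tested in both, 20.6% were called in both and 6.8% were lower in the NKX2-2 and higher in the CLEC16A knockout, so such calls were common. H4C8 kept both calls in each of 18 alternatives. None of the other 3 did: H2AC6 kept its CLEC16A call in 9, H3C6 its NKX2-2 call in 7, and H2AC13 its NKX2-2 call in 12 and its CLEC16A call in 15.

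Whether the effects differ was asked with an interaction term in 1 edgeR fit of the 12 libraries. Of 26 members tested, the NKX2-2 effect was lower than the CLEC16A effect for 14 and higher for 2, and 10 did not pass. Over all 20494 genes tested, 38.2% passed, 20.4% lower and 17.8% higher. The median difference was -0.85 over the members and 0.04 over all genes, on the log2 scale. Among the clearest differences were those of H2AC11 at -2.27 (SE 0.21, adjusted p = 7.91e-09), H2BC11 at -2.12 (SE 0.21, adjusted p = 2.974e-08) and H3C6 at -1.37 (SE 0.21, adjusted p = 1.358e-05). The 2 higher members were H1-10 (0.37) and H2AC20 (1.57). Their count fell to 0 without NKX2-2 wild type replicate 1 or 2 or CLEC16A knockout or wild type replicate 3. It fell to 1 without NKX2-2 knockout replicate 2 or 3, CLEC16A knockout replicate 1 or CLEC16A wild type replicate 1 or 2. H4C8 gave a difference of -0.14 that did not pass (SE 0.20, adjusted p = 0.629).

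**Figure D2:**
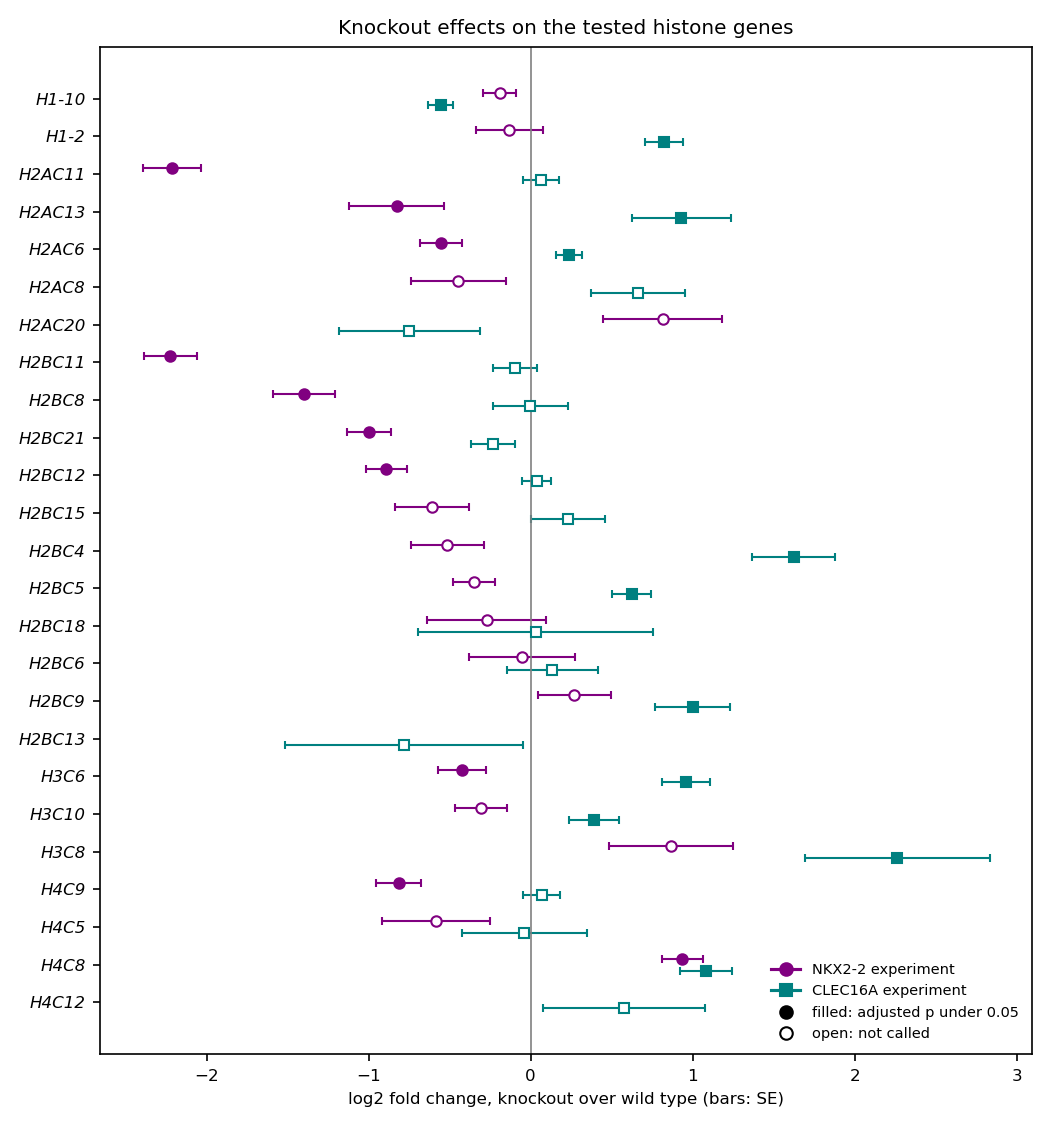
Log2 fold change (knockout over wild type) with its SE for each tested histone gene, grouped by class, with circles for the NKX2-2 and squares for the CLEC16A experiment and filled marks for adjusted p under 0.05. Filled circles lie left of 0 except that of H4C8, and filled squares lie right of 0 except that of H1-10.

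Summed by class, H2A and H2B counts fell in the NKX2-2 knockout and H3, H4 and H2A counts rose in the CLEC16A knockout. Class totals replaced the members in the same fits, in which 33.4% and 45.0% of all features passed. In the NKX2-2 experiment the H2B total was 137.9 ± 15.9 CPM in the knockout and 240.7 ± 23.0 in the wild type (log2 fold change -0.80, adjusted p = 0.000126). The H2A total was 62.7 ± 5.2 and 100.4 ± 15.4 CPM (-0.68, adjusted p = 0.00093). H3 and H4 totals had values of -0.31 and -0.20 that did not pass (adjusted p = 0.0761 and 0.219). The sum of the 9 H1 members, most of it H1-10, had a value of -0.19 (adjusted p = 0.182), and without H1-10 of -0.13 (adjusted p = 0.654).

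In the CLEC16A experiment the H3 total was 19.9 ± 1.3 CPM in the knockout and 12.1 ± 1.0 in the wild type (log2 fold change 0.72, adjusted p = 1.366e-05). The H4 total was 29.2 ± 2.6 and 22.9 ± 0.57 CPM (0.35, adjusted p = 0.00341). Summed TPM of the H4 genes did not rise, at 65.3 ± 3.2 and 68.1 ± 5.6 (ratio 0.960, exact permutation p = 0.4, n = 3 each). H4C8 rose on TPM values too (limma on log2(TPM + 1), 0.656, adjusted p = 0.00555). H4C11, with only 51 counts, stood at 0, 6.11 and 0 TPM in the knockout and at 11.3, 12.7 and 7.07 in the wild type. The H4 sums in TPM and in counts thus also rest in part on different genes. Summed TPM was higher in the knockout for H3 (20.99 against 17.2) and H2A (190.1 against 138.9), without overlap between groups (exact permutation p = 0.1 each, the smallest possible). Much of the H2A rise in TPM came from the near-identical copies H2AC18 and H2AC19, which had only 15 and 17 counts. H2AC6, which held most H2A counts, did not pass on TPM values (limma on log2(TPM + 1), 0.093, adjusted p = 0.388). The H2A sums in TPM and in counts thus rest in part on different genes. The H2A total had a value of 0.21 (adjusted p = 0.0209), which was lost without knockout replicate 3 (0.162, adjusted p = 0.0743) or wild type replicate 3 (0.159, adjusted p = 0.145), and under upper-quartile scaling (0.137, adjusted p = 0.128). The sum of the 9 H1 members fell with H1-10 in it, at 146.3 ± 12.8 against 198.0 ± 16.1 CPM (-0.44, adjusted p = 3.755e-05). Without H1-10 it was 18.5 ± 0.63 against 10.3 ± 1.1 CPM and rose (0.85, adjusted p = 3.035e-06). The H2B total had a value of 0.22 (adjusted p = 0.0547). It passed without wild type replicate 1 or 3 (adjusted p = 0.0403 and 0.0204).

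**Figure D3:**
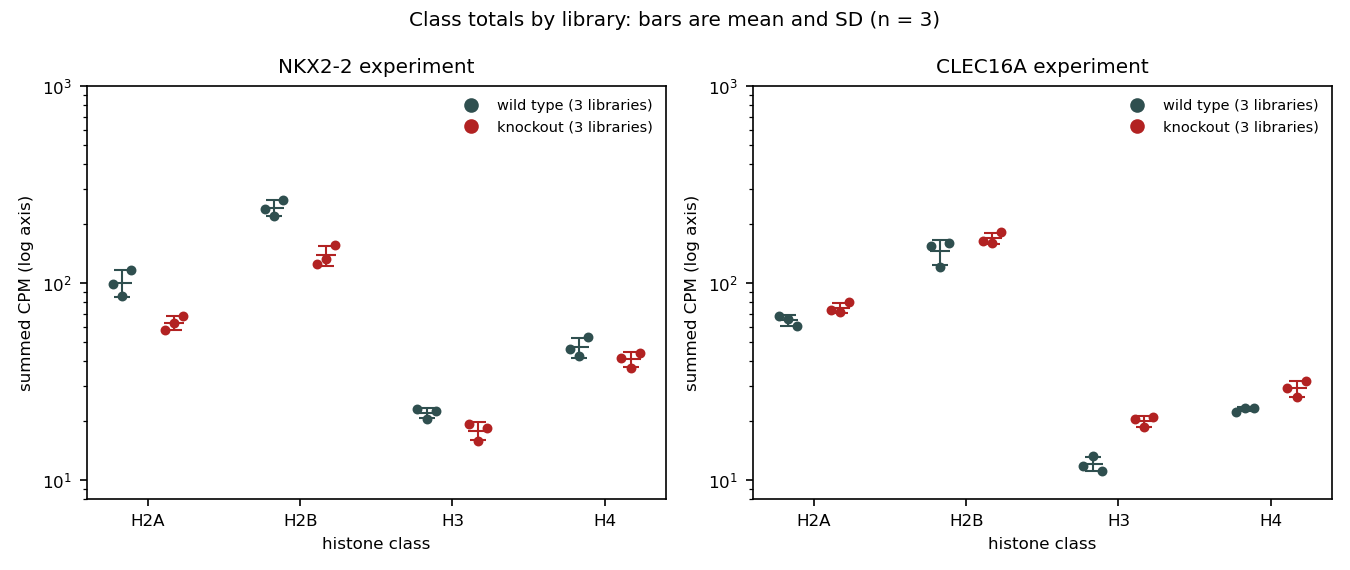
Summed CPM of the H2A, H2B, H3 and H4 genes in every library on a log axis, with wild type and knockout libraries as points and mean and SD (n = 3) as bars. In the NKX2-2 experiment the H2A, H2B and H3 knockout totals lie below wild type without overlap. In the CLEC16A experiment those of H2A, H2B, H3 and H4 lie above it. The H3 total in the NKX2-2 and the H2B total in the CLEC16A experiment did not pass the test.

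Many H2A and H2B genes sit head to head, and 10 such pairs were found with starts 219 to 331 bases apart in GENCODE 29. H2BC11 and H2AC11, whose starts are 292 bases apart, had almost equal values in both experiments (log2 fold change -2.22 and -2.22 in the NKX2-2 and -0.10 and 0.06 in the CLEC16A experiment). H2BC4 and H2AC6 also had the same sign in each, at -0.51 and -0.55 in the NKX2-2 and 1.62 and 0.24 in the CLEC16A experiment. With both genes tested, 3 of 4 pairs had the same sign in the NKX2-2 experiment and 2 of 5 in the CLEC16A experiment. H2BC8 and H2AC8 stood at -1.40 and -0.45 in the first and at -0.0019 and 0.66 in the second. H2BC21 fell in the NKX2-2 knockout (-1.0) while its partner H2AC20, with a mean of 0.660 CPM in the wild type, had a value of 0.82 that did not pass, and in the CLEC16A experiment they stood at -0.23 and -0.75, neither called. H2BC12 had a mean of 145.9 CPM in the wild type and its partner H2AC12 only 0.138 CPM, too low for the test.

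Members with the octamer in their promoter were compared with those without it, as a description. In the NKX2-2 experiment 6 of 12 tested members with an octamer fell (median log2 fold change -0.53), and of 11 without it 3 fell and 1 rose (median -0.35), against 16.8% lower and 16.6% higher over all genes tested. With CLEC16A knockout 3 of 12 with an octamer rose (median 0.05), and of 13 without it 7 rose and 1 fell (median 0.58), against 23.7% higher and 21.3% lower over all genes. The octamer genes' 3 of 12 is near that background. POU2F1, the octamer-binding factor, was lower in the NKX2-2 knockout (-0.56, adjusted p = 0.0471) and had a value of 0.18 in the CLEC16A knockout (adjusted p = 0.0696). Whether octamer genes and others differ was not tested.

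Near-identical copies were read very differently by the 2 kinds of table. H2AC18 and H2AC19 on 1q21 have 0.0% and 3.23% of their 100-base words unique among GENCODE 29 transcripts. They had 8 and 5 counts over the 6 NKX2-2 libraries, yet mean TPM of 11.2 and 10.9. Over the CLEC16A libraries they had 15 and 17 counts at 37.9 and 37.0 TPM. That is 0.119 and 0.0764 counts per TPM in the first experiment, where the median of all genes was 61.95. In all, 10 members had under 5% unique words, and they held 0.132% and 0.203% of member counts against 6.58% and 8.85% of member TPM.

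H2AC18 and H2AC19 were too low for the count test and are described by TPM, in which their reads are shared. H2AC18 stood at 8.57, 8.34 and 10.4 TPM in the NKX2-2 knockout and at 11.2, 13.2 and 15.6 TPM in its wild type. The groups did not overlap, and limma on log2(TPM + 1) gave a fall of 0.50 (adjusted p = 0.0183), which did not pass without a filter on low values (0.085). Among CLEC16A libraries H2AC18 stood at 44.9, 45.4 and 57.7 TPM in the knockout and at 27.1, 28.5 and 24.0 TPM in the wild type. All knockout libraries were above the wild type, and the rise was 0.86 on that scale (adjusted p = 0.000578). H2AC19 gave -0.49 and 0.85 (adjusted p = 0.0191 and 0.000627), and is not independent of its copy.

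**Figure D4:**
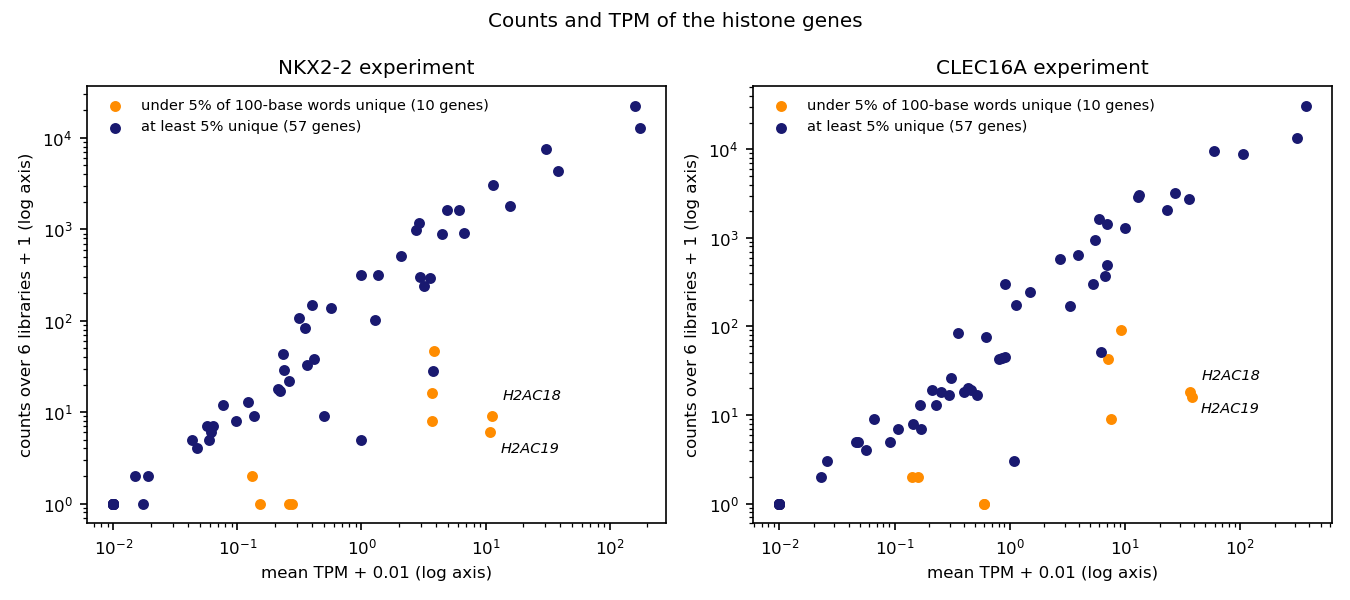
Counts summed over 6 libraries (plus 1) against mean TPM (plus 0.01) for the histone genes found in GENCODE 29, both on log axes, for each experiment. Most genes with under 5% of 100-base words unique have few counts for their TPM, as do some of the others. H2AC18 and H2AC19 combine 8 and 5 counts with 11.2 and 10.9 TPM in the NKX2-2 experiment.

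Of 15 genes for histone transcription and 3′ end processing, few changed. In the NKX2-2 knockout 1 rose and 3 fell (median log2 fold change 0.05). NPAT, the activator of cluster genes, rose (0.43, adjusted p = 0.0242), and UPF1 (-0.53), which acts in histone message decay, SYMPK (-0.41), a processing scaffold, and POU2F1 fell. SLBP, the stem-loop binding protein, had a value of 0.17 (adjusted p = 0.341). Leaving out 1 library at a time gave 0 to 2 higher and 1 to 3 lower genes, so the NPAT call was lost in some fit. In the CLEC16A knockout 3 rose and 1 fell (median 0.05). TUT7 (0.49) and ERI1 (0.39), enzymes of histone message decay, and LSM11 (0.36), a part of the U7 particle, rose, and its partner LSM10 fell (-0.36). SLBP had a value of -0.18 (adjusted p = 0.0818). For this list and those that follow, the shares over all genes tested were 16.6% higher and 16.8% lower in the NKX2-2 experiment. They were 23.7% higher and 21.3% lower in the CLEC16A experiment.

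Genes of S phase and DNA replication were mostly not called in the NKX2-2 knockout, where 1 rose and 5 fell of 23 (median 0.01). The helicase subunit MCM5 (-0.74) and the licensing factor CDT1 (-0.55) had the smallest p. In the CLEC16A knockout 8 of 23 rose and 15 did not pass (median 0.10), with MCM6 at 0.73 and RRM2, a subunit of the enzyme that makes deoxynucleotides, at 0.64. Of 14 genes of G2 and mitosis, 1 rose and 2 fell in the NKX2-2 knockout (median -0.06), among them CDC20 (-0.44) and PLK1 (-0.43). With 1 library left out at a time, 0 to 2 rose and 0 to 3 fell, so neither of these calls held in every fit. In the CLEC16A knockout 10 rose and 4 did not pass (median 0.32), with MKI67 at 0.82 and PLK1 at 0.50. Among 7 inhibitors of cyclin-dependent kinases, CDKN2B (-1.32) and CDKN2D (-0.83) fell in the NKX2-2 knockout. In the CLEC16A knockout 4 rose and 2 fell, with CDKN1A at 2.11 and CDKN2A at 1.91. The part of cell division in the histone values was not tested.

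Histone genes outside the naming rule, most of them variants made throughout the cell cycle, were tested beside the members. Of 11 tested, H3-3A (0.37) and H3-3B (0.34) rose and H2AW (-0.66) fell in the NKX2-2 knockout (median 0.01). With 1 library left out at a time, 0 to 2 rose and 1 to 2 fell there, so neither rise held in every fit. In the CLEC16A knockout 7 of 11 fell and 4 did not pass (median -0.21), with MACROH2A2 at -0.95 and H3-3A at -0.32. Of 20 tested histone chaperones, 2 rose and 3 fell in the NKX2-2 knockout (median -0.01) and 2 rose and 5 fell in the CLEC16A knockout (median -0.09). NAP1L1, a carrier of H2A and H2B, rose in the first (0.38) and fell in the second (-0.38). CABIN1 (-0.61) fell in the first, and RBBP7 (-0.31) fell in the second. With 1 library left out at a time, 0 to 5 chaperones rose and 1 to 5 fell in the NKX2-2 experiment. The NAP1L1 rise there was thus lost in some fit. In the CLEC16A experiment 0 to 5 rose and 4 to 5 fell.

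Non-histone neighbours of the chromosome 6 cluster were listed to see whether the region as a whole moved. In the NKX2-2 knockout 2 of 15 tested rose and 1 fell (median 0.05), with ZNF184 at 0.68 and BTN2A1 at -0.55. In the CLEC16A knockout 7 of 17 rose and 1 fell (median 0.18), with BTN3A3 at 1.73 and TRIM38 at 1.36. Of the members known for polyadenylated transcripts, 7 were tested, with medians of -0.51 (3 lower, 4 not passing) and 0.24 (4 higher, 1 lower, 2 not passing) in the NKX2-2 and CLEC16A experiments. Beside these stand 16.8% lower over all genes in the first, and 23.7% higher and 21.3% lower in the second.

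Markers of cell types moved with both knockouts. In the NKX2-2 experiment 8 of 12 islet endocrine markers fell and 2 rose (summed level 1193 to 1268 CPM in the knockout and 3256 to 3756 in the wild type), with GCG at -4.43 and NKX6-1 at -1.89. All 8 mesenchyme markers rose there (5978 to 6609 against 2384 to 2645 CPM), with PDGFRA at 3.31 and LUM at 1.97. In the CLEC16A experiment all 12 islet markers fell (14480 to 16760 against 27780 to 30640 CPM), with GCG at -2.86 and INS at -1.77. Liver and gut markers rose there in 6 of 7 (11710 to 12800 against 4087 to 4315 CPM), with FABP2 at 3.53 and ALB at 2.72, and 6 of 8 mesenchyme markers fell (200.2 to 235.4 against 301.0 to 344.9 CPM).

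The remaining marker lists were less uniform. In the NKX2-2 experiment the summed levels of liver and gut and of acinar and duct markers overlapped between groups. In the NKX2-2 experiment 4 of 5 endothelium markers rose and 1 fell (65.0 to 73.7 against 21.3 to 27.0 CPM), 1 of 7 liver and gut markers rose and 3 fell (6929 to 8585 against 7647 to 8928 CPM), and 2 of 7 acinar and duct markers rose and 1 fell (684.6 to 756 against 717.5 to 823.2 CPM). With CLEC16A knockout 1 of 4 endothelium markers rose and 2 fell (10.5 to 13.5 against 20.6 to 22.5 CPM), and 6 of 8 acinar and duct markers rose and 1 fell (848.8 to 859 against 638.4 to 673.9 CPM). No marker of these lists was at 0 counts throughout. The 1 lower endothelium call in the NKX2-2 experiment was lost whenever 1 library was left out, and 3 to 4 were called higher. The part of cell makeup in the histone values was not tested.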

How the data were processed

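Bulk RNA-seq of 12 libraries was used, grouped by sample title. For each experiment the authors deposited raw counts by Ensembl gene and, separately, TPM values. The submitters' processing notes name StringTie 2.1.7, HISAT2 2.2.1, fastp 0.22.0 and the build hg38, per the labels. Counting program, annotation release and strand setting: not given in the sources used here. Gene symbols stand in only 1 table and were joined by gene ID. Pseudoautosomal genes were kept once, which dropped 45 duplicate rows.

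Each knockout was tested against its own wild type by edgeR 4.0.16 run in R 4.3.3 (robust quasi-likelihood test of the deposited counts after filterByExpr and TMM scaling), adjusting p by Benjamini-Hochberg over all genes tested at a threshold of 0.05. Class totals replaced their members in a second fit. CPM are on TMM-scaled library sizes, except those of the targeted genes, which are on all counts. Standard errors (SE) come from the F statistic. Fits were tested on simulated data. Alternatives were DESeq2 1.42.0, other scaling and filters, a replicate block, 1 fit of all libraries, leaving out each library, and limma 3.58.1 on log2(TPM + 1), also with 0.1 added. Fits without mitochondrial DNA genes, without both libraries numbered 3 and with H1 sums short of H1-10 were added after seeing the data. A gene that the naming rule takes in is not reported here, and counts, shares and sums of members leave it out. The members and lists were chosen with earlier results of these data known. Genes named are the called members, members among the smallest p in each experiment, H1-10 by library, the 2 smallest p of each list, and a few chosen after their values were seen: NPAT, SLBP, POU2F1, LSM10, LSM11, H3-3B, H2AC12, H2AC18 and H2AC19.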

Additional observations from a re-analysis of the deposited data

Results flagged for a closer look

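The change from wild type to knockout libraries differed between the experiments for 16 of 26 tested histone genes. The test was the interaction term (edgeR quasi-likelihood, adjusted p under 0.05). Beside this, 38.2% of all 20494 genes tested passed, 20.4% with a negative and 17.8% with a positive difference. Values are the NKX2-2 effect minus the CLEC16A effect on the log2 scale. The difference was negative for H2AC11 (-2.27), H2BC11 (-2.12), H2BC4 (-2.13), H2AC13 (-1.75), H2BC8 (-1.39), H3C6 (-1.37) and H2AC8 (-1.10). It was also negative for H2BC5 (-0.97), H1-2 (-0.95), H2BC12 (-0.92), H4C9 (-0.87), H2AC6 (-0.78), H2BC21 (-0.76) and H3C10 (-0.69). H1-10 (0.37) and H2AC20 (1.57) had positive differences. Of the 16, all but H1-10, H2AC20 and H2AC8 passed in each of the 18 alternatives. H1-10 passed in 13, and lost the call without NKX2-2 wild type replicate 1 or 2, CLEC16A knockout replicate 3, or CLEC16A wild type replicate 2 or 3 (adjusted p 0.0516 to 0.105). H2AC20 and H2AC8 passed in 8 each (adjusted p 0.00999 to 0.118 and 0.0177 to 0.118).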

How the results depend on the processing

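Of 264 alternative values of the main counts, class totals and shares, 233 were labelled the same as the main value. Counts of called members were judged by how close they stayed to the main count. Class totals were judged by direction and side of the threshold, and shares by direction alone. Called members in every alternative numbered 8 of 10 in the NKX2-2, 6 of 11 in the CLEC16A experiment and 13 of 16 for the difference, and no called member changed sign. Called higher in the NKX2-2 experiment were 2 members without both libraries numbered 3. Called lower in the CLEC16A experiment were 2 with DESeq2, 2 with no filter and, by construction, 0 without H1-10, and the difference was higher for 1 with DESeq2 and 1 with no filter. For class totals in the CLEC16A experiment, H1 had 0.845 without H1-10, H2A 0.137 with upper-quartile scaling and 0.221 in 1 fit of all libraries, and H2B 0.214 with no filter. The ratio of the CLEC16A share turned from 0.893 to 1.1 without H1-10. The causes were not tested.

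Leaving out each library gave 1 to 2 higher (2 without wild type replicate 3) and 7 to 9 lower members in the NKX2-2 experiment, 7 to 10 higher and 1 to 2 lower (2 without knockout or wild type replicate 2) in the CLEC16A experiment, and 0 to 2 higher and 13 to 15 lower differences. Class totals ran from -0.382 to -0.222 for NKX2-2 H3, and in the CLEC16A experiment from 0.159 to 0.246 for H2A and 0.0967 to 0.286 for H2B. Uncalled values near 0 changed sign. H1-2 in the NKX2-2 experiment had 0.00284 and 0.0400 without knockout replicate 1 or wild type replicate 3, in a range from -0.385. In the CLEC16A experiment, H2AC11 had -0.0112 with upper-quartile scaling, -0.0280 without both libraries numbered 3 and -0.0561, -0.0602 and -0.0561 by TPM. H2BC12 had -0.0363 with upper-quartile scaling, -0.0913 without wild type replicate 2 (up to 0.123 without others) and -0.0707, -0.0709 and -0.0707 by TPM. H2BC8 had 0.00837 in 1 fit, 0.0477 without both libraries numbered 3 and 0.170, 0.0927 and 0.0382 without knockout replicate 2, 3 or wild type replicate 2 (down to -0.306 without others). H4C9 had -0.00596 with upper-quartile scaling and -0.0668, -0.0689 and -0.0668 by TPM.

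Upper-quartile scaling moved the split of all called genes to 3473 higher and 2478 lower in the NKX2-2 and 4034 higher and 5294 lower in the CLEC16A experiment, from 2888 and 2936 and from 4732 and 4253. It moved the median difference of all genes from 0.04 to 0.16, and TPM moved the CLEC16A median from -0.01 to -0.12.

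Whether the replicate numbers pair the samples is not settled. Deviations of libraries with the same number correlated at 0.11, 0.03 and 0.32 in the NKX2-2 experiment. The values were 0.01, 0.01 and -0.03 in the CLEC16A experiment, and not every library correlated best with its own number. In the NKX2-2 experiment the libraries numbered 3 correlated at -0.24 to -0.11 with those of other numbers in the opposite group. With a replicate block 13 members were called in the NKX2-2 experiment (adding H1-10, H2BC15 and H2BC5), 10 in the CLEC16A experiment (without H3C10) and 16 for the difference, where 45.0%, 42.2% and 41.9% of all genes were called (33.4%, 45.0% and 38.2% with no block). The block gave the class totals -0.187 for NKX2-2 H1, -0.309 for NKX2-2 H3 and 0.223 for CLEC16A H2B, all past the threshold. Of the 45 members with short transcripts, only 8 (NKX2-2) and 10 (CLEC16A) had enough counts for the test.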
